A study of Capra hircus with 27 samples.

Results

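Heart transcription was compared between goats (Capra hircus) from a population residing at 3000 m (A'ba) and goats from a population residing at 600 m (Ya'an), with 3 heart libraries per population. The genes described are the 12159 of 22131 annotated genes whose mean expression exceeded 0.5 FPKM over these 6 libraries, where FPKM is the number of fragments scaled by transcript length and by library size. The series also holds heart libraries from a 2000 m population (Zhaotong, 3 libraries) and lung and skeletal muscle libraries from all 3 altitudes, which served here for the estimate of spread and for the breadth of expression. The animals were about 3 years old per the labels and were untreated as far as the labels say. Per the methods of the study the 600 m and 3000 m goats were unrelated adult females, and these methods do not cover the 2000 m goats. Each altitude is 1 population at 1 place, so altitude cannot be told apart from population, breed or site. Of the tested genes, 11674 exceeded 0.5 FPKM on average in both groups, 363 at 3000 m alone and 122 at 600 m alone.

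The heart is an oxidative muscle that depends on a constant supply of oxygen. At high altitude the lower oxygen pressure constricts the arteries of the lung, which raises the load on the right ventricle, and heart muscle cells are known to respond to lasting hypoxia by altering fuel use and oxygen handling. Heart tissue also holds endothelial cells, fibroblasts, blood cells and fat. In bulk tissue a lower value can mean fewer cells of a type or less RNA per cell, and these cannot be told apart. The annotation IDs could not be paired with gene symbols, so the genes below are described by rank, level and tissue breadth, without function. Marker genes of heart could not be looked up for the same reason, and the tissue label was checked only by correlation across genes: heart libraries correlated with each other at r = 0.931 to 0.981, with skeletal muscle at 0.803 to 0.866 and with lung at 0.61 to 0.711.

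The libraries of the compared groups differed in composition. The 10 most abundant genes took 25.8% to 27.8% of all FPKM at 600 m and 31.2% to 35.4% at 3000 m, and 13992 to 14230 genes had a value above 0 at 600 m against 14599 to 14631 at 3000 m. Neither range overlapped the other. The 600 m replicate 1 library stood apart from its group. Its mean correlation across genes was 0.958 with the other 600 m hearts and 0.964 with the 3000 m hearts, while replicates 2 and 3 correlated at 0.971 and 0.967 with their own group and at 0.946 and 0.939 with the other. Its median-of-ratios factor, a measure of overall scale against the other hearts, was 0.845, against 0.948 to 1.07 in the other 8 heart libraries. Over the tested genes the median SD within the 600 m group was 0.23 on the log2 scale with this library and 0.13 without it. The second value rests on 2 libraries, so the 2 are not like for like. The median SD was 0.18 in the 3000 m hearts and 0.17 in the 2000 m hearts. The deposited values hold no read counts, so the depth of the libraries is unknown. Counts over the gene classes are given with and without it.

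Of the 12159 genes, 1397 (11.5%) differed between 3000 m and 600 m at a Benjamini-Hochberg adjusted p of at most 0.05 (limma on log2(FPKM + 1), 9 heart libraries in the fit), and these are the genes referred to as called. Higher expression at 3000 m was called for 928 genes (7.63%) and lower expression for 469 (3.86%). Among the called genes, 58 exceeded 0.5 FPKM on average at 3000 m alone and 14 at 600 m alone. These passed the filter on low values through 1 group, so their calls are a description only. The median change was 0.77 on the log2 scale in the higher set and -0.71 in the lower set. A change of at least 2-fold was reached by 215 called genes upward and 86 downward, and one of at least 4-fold by 20 upward and 7 downward. The called genes that fell were expressed at a higher level than those that rose, with a median of 21.7 FPKM against 8.67 FPKM and 7.55 FPKM over all tested genes. Across all tested genes the median change was 0.08, the central 90% of changes lay between -0.67 and 0.82, and the median standard error was 0.18. All 3 of the 3000 m hearts lay above all 3 of the 600 m hearts for 2547 genes (20.9%), and below them for 1522 (12.5%). The groups did not overlap for 1392 of the 1397 called genes.

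**Figure D1:**
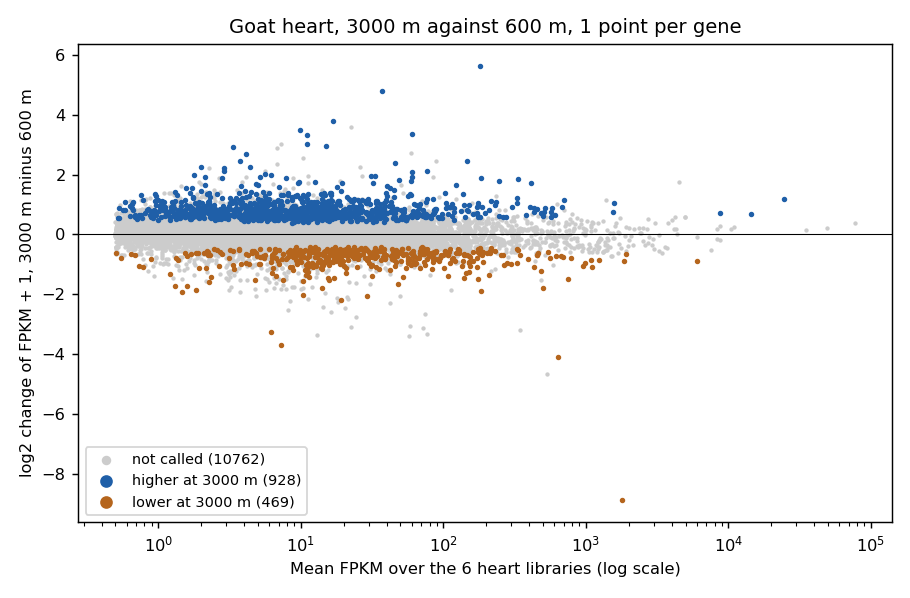
Change in heart between 3000 m and 600 m against expression level. Each point is 1 of the 12159 tested genes, with the mean FPKM over the 6 compared libraries on a logarithmic x axis and the log2 change of FPKM + 1 (3000 m minus 600 m) on the y axis. The 928 called rises and the 469 called falls spread over a wide range of levels, and the largest fall (-8.9) and largest rise (5.64) lie far from the central 90% of genes.

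The number of called genes depended on single libraries. Without 600 m replicate 1 it was 2354, with 1126 higher and 1228 lower, so the share of higher genes went from 66.4% to 47.8%. Of the 1397 genes, 1247 were also called there, and all 1397 kept their direction. Leaving out replicate 2 of the 600 m hearts gave 417 called genes and leaving out replicate 3 gave 316. For the 3000 m hearts, 821 genes were called without replicate 2 and 312 without replicate 3. The fit without 2000 m replicate 1 called 849. Without replicate 1 of the 3000 m group the number was 14, although 2933 genes still had an unadjusted p under 0.05, against 3881 with all libraries. The balance of directions also depended on the scaling between libraries, since the higher share was 43.2% of 1872 called genes after median-of-ratios scaling and 47.6% of 1564 after quantile normalization. With the 6 compared libraries alone 318 genes were called, 312 of them among the 1397, and 70.1% of the 318 were higher.

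The weight of 600 m replicate 1 fell mainly on the genes that were lower at 3000 m. Since the genes were chosen by this contrast, the following values describe the libraries and test nothing. Over the 469 lower genes, replicate 1 deviated from the mean of the 6 libraries by a median of 0.16, against 0.43 and 0.47 in replicates 2 and 3. It was the 600 m library nearest to the 3000 m hearts in 75.1% of these genes. Over the 928 higher genes its median deviation, -0.36, was the same as that of replicate 2 and close to the -0.43 of replicate 3, and it was the nearest library in 37.5% of them.

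**Figure D2:**
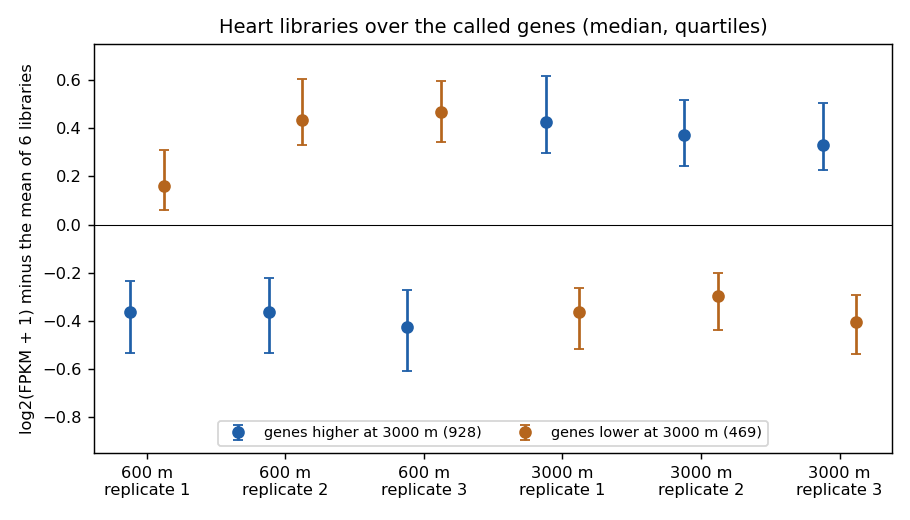
Position of each compared heart library over the called genes. Points give the median, and bars the quartiles, of log2(FPKM + 1) minus the mean of the 6 libraries, for the 928 genes higher and the 469 genes lower at 3000 m. In the lower genes 600 m replicate 1 (median 0.16) sits between the other 600 m libraries (0.43 and 0.47) and the 3000 m libraries (-0.4 to -0.3).

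The largest shifts were ranked among the called genes whose groups did not overlap and whose mean was at least 5 FPKM in the higher group, which left 680 rises and 430 falls. In the largest rise, GOAT_ENSP00000374859, the 600 m hearts held 8.3, 1.19 and 1.16 FPKM and the 3000 m hearts 158, 38.2 and 874 FPKM (replicates 1 to 3). The log2 change was 5.64 ± 1.09 (SE, limma adjusted p = 0.0189). The 3000 m values spanned a wide range, with replicate 3 the highest, and the lowest of them still lay above every 600 m value. The 2000 m hearts, at 69.4, 55.9 and 330 FPKM, lay above every 600 m heart and within the range of the 3000 m group. The same gene was far more abundant in lung, where 600 m replicate 1 held 4062 FPKM, and the other 600 m lungs 201 and 164 FPKM. The 3000 m lungs held 3570, 3610 and 60212 FPKM, so that 600 m replicate 1 lay above the first 2 of them.

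In the next largest rise, goat_GLEAN_10000538, the 600 m hearts held 0.393, 0 and 0.442 FPKM and the 3000 m hearts 31.1, 6.17 and 186 FPKM (log2 change 4.8 ± 0.94, limma adjusted p = 0.0196). Its 3000 m hearts stood in the same order, with replicate 3 the highest, and it too was more abundant in lung, at 439, 9.84 and 17.7 FPKM at 600 m and 379, 384 and 3240 FPKM at 3000 m. The fourth and the sixth largest rises repeated this pattern. The fourth held 2.41, 0 and 0 FPKM in the 600 m hearts and 15.2, 7.14 and 34.6 FPKM in the 3000 m hearts. The sixth held 1.03, 0.0789 and 0.0773 FPKM and then 10.4, 2.97 and 51.7 FPKM. In lung these 2 genes reached 1968 and 3073 FPKM, again in 3000 m replicate 3. Of the 6 largest rises, 5 were highest in 3000 m replicate 3 and 4 had their highest 600 m value in replicate 1. The lung libraries that carry the same numbers were the highest of their groups for the 4 lung-abundant genes, and what part this plays in the heart values was not tested.

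The fifth largest rise depended on the same 600 m library in another way. Its 3000 m hearts were close together at 102, 91.3 and 108 FPKM, while the 600 m hearts held 55, 3.36 and 3.07 FPKM, so that replicate 1 lay nearer to the 3000 m group. The log2 change was 3.35 ± 0.9 (limma adjusted p = 0.0427) with all libraries and 4.59 (adjusted p = 0.00208) without 600 m replicate 1. The 2000 m hearts held 55.1, 58.1 and 190 FPKM.

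The third largest rise differed from the others in being nearly absent from lung and muscle. The 600 m hearts held 0.945, 0.872 and 1.29 FPKM, and the 3000 m hearts 54.3, 11.8 and 30.9 FPKM. These groups were well separated, and the 2000 m hearts, at 23.3, 32.6 and 10.3 FPKM, lay with the 3000 m group. The log2 change was 3.8 ± 0.51 (limma adjusted p = 0.0127). Lung values did not exceed 0.553 FPKM and muscle values did not exceed 1.39 FPKM in any library. At these low values muscle also rose, from 0.119 to 0.448 FPKM at 600 m up to 0.937 to 1.39 FPKM at 3000 m. Its log2 change there was 0.76 ± 0.4, which the pseudocount of 1 shrinks.

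In the largest fall, GOAT_ENSP00000364092, the 600 m hearts held 9.92, 5983 and 4723 FPKM and the 3000 m hearts 0, 1.84 and 0 FPKM. The gene was thus among the abundant transcripts of 2 of the 600 m hearts and at or near 0 in every 3000 m heart, while 600 m replicate 1 was low. The log2 change was -8.9 ± 1.97 (limma adjusted p = 0.0261), and -11.9 (adjusted p = 4.63e-05) without 600 m replicate 1. The 2000 m hearts held 2722, 2458 and 1352 FPKM and so lay with 600 m replicates 2 and 3. Lung showed the same order of libraries, with 2.06, 4385 and 3141 FPKM at 600 m and at most 5 FPKM at 3000 m. Skeletal muscle did not, since its 600 m replicate 1 held 2734 FPKM beside 2254 and 3605 FPKM, and its 3000 m libraries held at most 1.38 FPKM. Heart and lung libraries numbered 1 at 600 m therefore differed from the muscle library of the same number. Muscle 600 m replicates 1 and 2 were far closer than any other replicate pair (robust SD of the log2 ratio 0.0863, against 0.199 to 0.504). Whether muscle replicate 1 repeats replicate 2 was not tested. The labels do not say whether libraries of 1 number come from the same animal in all tissues, and whether replicate 1 of 600 m carries the right label was not tested, which bears on every value of that library.

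The second largest fall, GOAT_ENSP00000005178, was the most uniform of the large shifts. The 600 m hearts held 769, 1616 and 1222 FPKM, and the 3000 m hearts 72.1, 75.9 and 52.4 FPKM. The mean at 600 m was 18 times that at 3000 m, and the log2 change was -4.1 ± 0.33 (limma adjusted p = 0.0014). The 2000 m hearts held 225, 122 and 107 FPKM, between the groups. The fall was shared by the other tissues, with 294 to 398 FPKM in the 600 m lungs against 32.1 to 49.7 FPKM at 3000 m, and 2767 to 3062 FPKM against 43.8 to 426 FPKM in muscle.

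The third and the fourth largest falls were also expressed in muscle at both altitudes. The third held 11.6, 27 and 5.13 FPKM in the 600 m hearts and was listed at 0 in all 3 of the 3000 m hearts, with 2.93, 5.85 and 2.4 FPKM at 2000 m (limma adjusted p = 0.0098). It passed the filter on low values through the 600 m hearts alone, so its fall is a description and no result of a test. The fourth held 6.37, 17.9 and 12.1 FPKM at 600 m and 0.618, 0.261 and 0 FPKM at 3000 m, with a log2 change of -3.27 ± 0.38 (adjusted p = 0.0094). In muscle the third held 12.7 to 29.3 FPKM at 600 m and 11.4 to 16.3 FPKM at 3000 m. In the fourth the muscle values were 10.9 to 21.1 FPKM at 600 m and 1.52 to 18.9 FPKM at 3000 m. The difference of the heart change from that in lung (limma adjusted p = 0.0871 and 0.0831) or in muscle (0.0906 and 0.121) missed the threshold for both. The fifth and the sixth falls were smaller, at -2.2 ± 0.53 and -2.06 ± 0.36, and 600 m replicate 1 was the lowest 600 m heart in both.

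**Figure D3:**
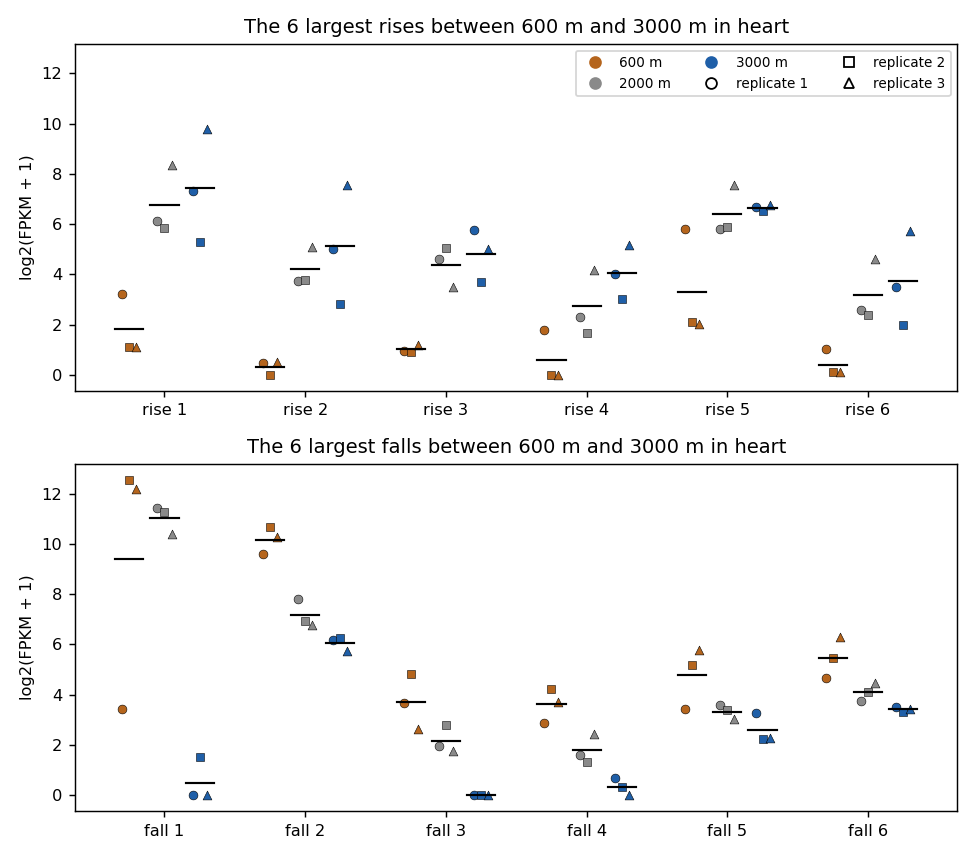
Values of the 6 largest rises (upper panel) and falls (lower panel) in each of the 9 heart libraries. The y axis is log2(FPKM + 1), colours give the altitude, symbols the replicate number and horizontal lines the group mean. In the largest fall 600 m replicate 1 (9.92 FPKM) lies far below the other 600 m hearts, in rises 1, 2, 4 and 6 the 3000 m values spread widely with replicate 3 on top, and in the second fall the 3 altitudes form separate clusters.

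Of these 12 genes, falls 2 and 4 were the 2 whose call did not hang on any single library. Without 3000 m replicate 1 the other 10 lost their call, among them rise 3 and fall 3 with limma adjusted p = 0.0518 each. Leaving out replicate 2 of the 600 m hearts ended the calls of rises 1, 2, 4, 5 and 6 and of falls 1 and 5, and leaving out replicate 3 ended the same ones. The calls of rises 4, 5 and 6 and of falls 1 and 5 were lost without 3000 m replicate 3, those of rises 5 and 6 and fall 5 without 2000 m replicate 1 or without 2000 m replicate 2, and those of rise 5 and fall 5 without 3000 m replicate 2. Over the 19 alternatives the highest limma adjusted p was 0.0673 for rise 1, 0.0686 for rise 2, 0.0823 for rise 4, 0.126 for rise 5, 0.108 for rise 6, 0.0901 for fall 1, 0.0956 for fall 5 and 0.058 for fall 6. Their direction was the same in all 19. Fall 4, with a 3000 m mean of 0.293 FPKM, passed the 0.5 FPKM limit through the 600 m hearts alone, as fall 3 did. Rises 2 and 6, with 600 m means of 0.278 and 0.396 FPKM, passed it through the 3000 m hearts alone. For these genes the calls, and how often they were kept, are a description only.

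Changes of the 5 most abundant heart transcripts were smaller than the ranked shifts, which were chosen by size. Over all genes of at least 500 FPKM the median absolute log2 change was 0.36, against 0.29 over all tested genes. The 3 most abundant genes, with values from 24817 to 80291 FPKM in the 600 m hearts, were not called, with log2 changes of 0.38 ± 0.21, 0.23 ± 0.22 and 0.15 ± 0.23. The fourth held 14981, 11958 and 18972 FPKM at 600 m and 37569, 35289 and 29319 FPKM at 3000 m. Its groups were well apart, with a log2 change of 1.17 ± 0.26 (limma adjusted p = 0.0258), and the 2000 m hearts (13561, 21915 and 12707 FPKM) stayed with the 600 m group. The fifth rose by 0.68 ± 0.16 (adjusted p = 0.0304), from 10078 to 11924 FPKM up to 15365 to 19122 FPKM, and its 2000 m values, 10856 to 12027 FPKM, again matched the 600 m range. The fourth gene lost its call in 6 of 19 alternative settings, among them the fits without 600 m replicate 2 (adjusted p = 0.0818) and without 3000 m replicate 1, 2 or 3 (0.0965, 0.059 and 0.0571). The fifth lost it in 10, among them every fit without a 3000 m heart (0.116, 0.0761 and 0.0559) and those without 600 m replicate 2 (0.0862) or 3 (0.1). The size depended on the scaling: after quantile normalization the log2 changes were 0.25 (adjusted p = 0.47) for the fourth and 0.2 (0.294) for the fifth, and after median-of-ratios scaling 1.08 (0.0343) and 0.59 (0.0702).

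The share of called genes changed with expression level. It was 4.67% of the genes at 0.5 to 1 FPKM, 8.64% at 1 to 5 FPKM, 12.9% at 5 to 50 FPKM, 17.9% at 50 to 500 FPKM and 13.8% above that, beside 11.5% of all tested genes. The pseudocount of 1 shrinks the changes of the lowest genes. The direction shifted as well, with 84.4% and 86.5% of the called genes higher at 3000 m in the lowest 2 classes and 45.5% and 43.3% in the highest 2. After quantile normalization, which gives every library the same distribution of values, these shares were 36.1%, 43.7%, 49.8% and 48.6%, so the link between low level and higher expression was not present on that scale. After median-of-ratios scaling they were 85.1%, 66.6%, 24.3% and 21.4%, and without 600 m replicate 1 they were 68.7%, 59.7%, 44% and 60.7%. Called genes that passed the filter on low values through 1 group alone count in these shares, which are a description.

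Breadth of expression was taken from the lung and muscle libraries of 600 m and 3000 m, with a tissue mean above 0.5 FPKM taken as detected. Most tested heart genes were detected in all 3 tissues (11136 genes), and 1311 of these were called, 854 higher and 457 lower. Of 177 genes detected in heart alone, 15 were called, 14 of them higher. Genes shared with muscle but not lung had 33 of 218 called, with 27 higher, and genes shared with lung but not muscle had 38 of 628 called, with 33 higher. The called shares were 11.8%, 8.47%, 15.1% and 6.05% in that order, beside 11.5% over all genes, and no test was made between the classes. Without 600 m replicate 1 the called genes of the all-tissue class were 1005 higher and 1191 lower, and its lower genes also prevailed after median-of-ratios scaling (742 against 1045) and quantile normalization (692 against 789). Without that library the genes detected in heart alone had 29 called (25 higher), those shared with muscle 55 (45 higher) and those shared with lung 74 (51 higher), beside 2354 called over all genes.

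The direction was most uneven in the genes enriched in heart. Of 293 genes whose heart mean was at least 4 times that of lung and of muscle, 46 were called, 45 higher at 3000 m and 1 lower. Thus 15.4% of the class rose and 0.341% fell, beside 7.63% and 3.86% of all tested genes. Higher genes prevailed in this class in every setting examined: 33 against 3 after median-of-ratios scaling, 42 against 3 after quantile normalization, 70 against 4 without 600 m replicate 1 and 15 against 1 with the 6 compared libraries alone. The median change of the whole class was 0.34, against 0.08 for all tested genes. The heart level that set the class includes the compared libraries.

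Genes of similar level in the 3 tissues showed no such imbalance. Among 4743 genes within 2 times of the heart level in lung and muscle, 280 were higher and 289 lower, and the lower genes prevailed after median-of-ratios scaling (256 against 669), after quantile normalization (244 against 467) and without 600 m replicate 1 (307 against 608). Among 1595 genes with a lung mean at least 4 times the heart mean, 141 were higher and 24 lower, which became 142 and 148 without 600 m replicate 1. Among 292 genes enriched in muscle in the same way, 34 were higher and 12 lower, against 38 and 24 without that library.

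**Figure D4:**
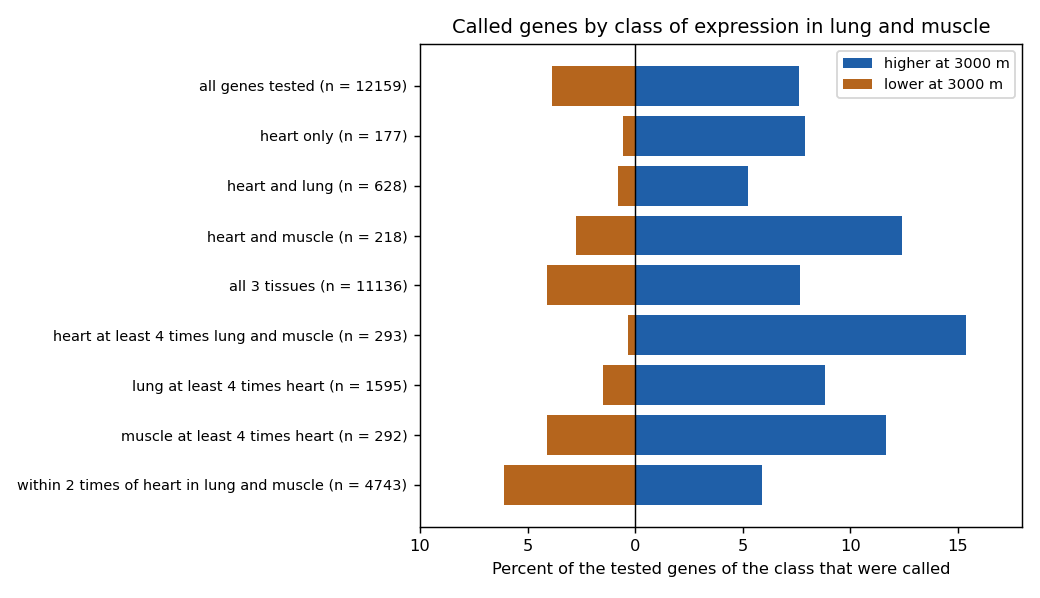
Share of the tested genes of each class that were called higher (right, blue) or lower (left, brown) at 3000 m in heart, in percent, with the number of tested genes in parentheses. Heart-enriched genes (293) show 15.4% higher and 0.341% lower, and genes of similar level in the 3 tissues (4743) show nearly equal shares of 5.9% and 6.09%.

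The kinds of annotation ID were called at similar rates. The share was 11.4% of 5715 genes with the prefix GOAT_ENSBTAP, 11.3% of 5545 with GOAT_ENSP and 12.9% of 899 with goat_GLEAN, and in the last kind 93 called genes were higher and 23 lower. Beside them, 11.5% of all tested genes were called, 7.63% higher and 3.86% lower. Genes whose ID carries an ending of -D and a number had 23 of 269 called (8.55%), 8 higher (2.97%) and 15 lower (5.58%). Without 600 m replicate 1 these genes had 53 called, 12 higher and 41 lower, beside 1126 higher and 1228 lower over all genes, and in the goat_GLEAN kind 106 were higher and 59 lower. The prefixes GOAT_ENSBTAP and GOAT_ENSP then had 518 higher against 598 lower and 502 against 571, in place of 442 against 210 and 393 against 236.

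Changes in heart were set beside the same altitude contrast in lung and muscle. Of 1349 called genes that were detected in lung, 87.5% moved in the same direction there, beside 69.4% of all 11764 tested genes detected in lung. In muscle the values were 83.9% of 1344 called genes and 64.7% of 11354. For the genes lower in heart the shares were 96.1% in lung and 91.6% in muscle, and for the higher genes 83% and 79.9%. The median change of the lower genes was -0.71 in heart, -0.58 in lung and -0.55 in muscle, and that of the higher genes 0.76, 0.35 and 0.37. Over all tested genes detected in the tissue, the median change was -0.12 in lung and -0.097 in muscle, against 0.07 for the detected genes in heart. Shares over all genes were not split by direction, so these values do not tell whether falls were more shared than rises. The genes were chosen by their heart change, and heart and lung libraries of the same number deviated together, so these shares are a description and were not tested.

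The difference between the heart and the lung change was itself tested for each gene. It passed the threshold for 15 genes (0.123%, limma adjusted p over 12159 genes, with 1313 at an unadjusted p under 0.05), and the heart change was the more positive in 12 of them. Over all tested genes the heart change was also the more positive, by a median of 0.17. After median-of-ratios scaling that median was 0.039, and 7 of 11 genes had the more positive change in heart. After quantile normalization the median was 0.0052, with 10 of 18 genes. With altitude and replicate number as a block over all 3 tissues, 69 genes passed. The numbers were taken to pair heart with lung but not with muscle, so this is given as a count only. The fit without the block treated heart and lung libraries of 1 number as independent. Its standard errors and adjusted p leave that pairing out, and a block over heart and lung alone was not fitted. Without the heart and lung libraries of 600 m replicate 1, 77 genes passed without the block. Leaving out only the heart library of 600 m replicate 1, 2 or 3 gave 30, 5 and 7 genes. Without the heart library of 3000 m replicate 1 the number was 8. The difference between heart and muscle passed for 156 genes (1.28%), of which 125 had the more positive change in heart, 118 changed with opposite signs in the tissues and 52 were also called in heart, 39 higher and 13 lower. Over all tested genes the median difference from muscle was 0.15. It was 0.038 after median-of-ratios scaling, with 173 of 263 passing genes more positive in heart. After quantile normalization it was 0.014, with 65 of 105. The number that passed was 252 with muscle 600 m replicates 1 and 2 kept separate and 51 with the 600 m and 3000 m libraries only. It was 472 with the same block, which rests on a pairing of heart and muscle numbers that was not taken to hold. Leaving out only the heart library of 3000 m replicate 1, 2 or 3 gave 65, 104 and 101 genes. Without the heart library of 600 m replicate 2 or 3 the numbers were 97 and 92. Of the 15 genes that differed from lung, 5 also differed from muscle.

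Of the 15 genes, 6 were also called in heart, all of them higher at 3000 m. The third largest rise, described above, was one, with a heart change 3.95 ± 0.51 larger than that in lung (limma adjusted p = 0.000548) and 3.05 ± 0.54 larger than that in muscle (adjusted p = 0.00705). A more abundant gene of this set held 46.4, 35.7 and 51.6 FPKM in the 600 m hearts and 273, 267 and 203 FPKM in the 3000 m hearts. Its 2000 m hearts, at 270, 350 and 238 FPKM, lay with the 3000 m group, and its values reached at most 0.416 FPKM in lung and 0.708 FPKM in muscle. The heart change was 2.45 ± 0.2 (limma adjusted p = 0.0014) and exceeded that in lung by 2.29 ± 0.28 (adjusted p = 0.000535). A further gene was the tightest of all, at 8.45, 8.92 and 8.86 FPKM against 19.1, 19.3 and 19.5 FPKM, with 17.5, 14 and 12.6 FPKM at 2000 m and at most 0.156 FPKM in lung. For these last 2 genes the difference from lung was lost with a pseudocount of 0.1 (adjusted p = 0.503 and 0.242), where values near 0 in lung weigh more.

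The other 3 genes of the set were of other kinds. One was low in all tissues and rose from 0.0824, 0.376 and 0.0374 FPKM to 4.78, 10.9 and 1.28 FPKM. It passed the filter on low values through the 3000 m hearts alone, so its rise is a description. Another was expressed in lung as well and moved in opposite directions, with a log2 change of 0.84 ± 0.22 in heart and -0.99 ± 0.21 in lung. The last held 9.59, 8.66 and 11.2 FPKM in the 600 m hearts and 30, 16.6 and 23 FPKM in the 3000 m hearts, with 23.4 to 38 FPKM in lung. Their differences from lung had limma adjusted p = 0.0397, 0.00955 and 0.043. With the 600 m and 3000 m libraries only, the values were 0.199 and 0.0692 for the first and the second of them. The last had 0.094 with median-of-ratios scaling, 0.0758 with quantile normalization and 0.0694 with a pseudocount of 0.1.

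**Figure D5:**
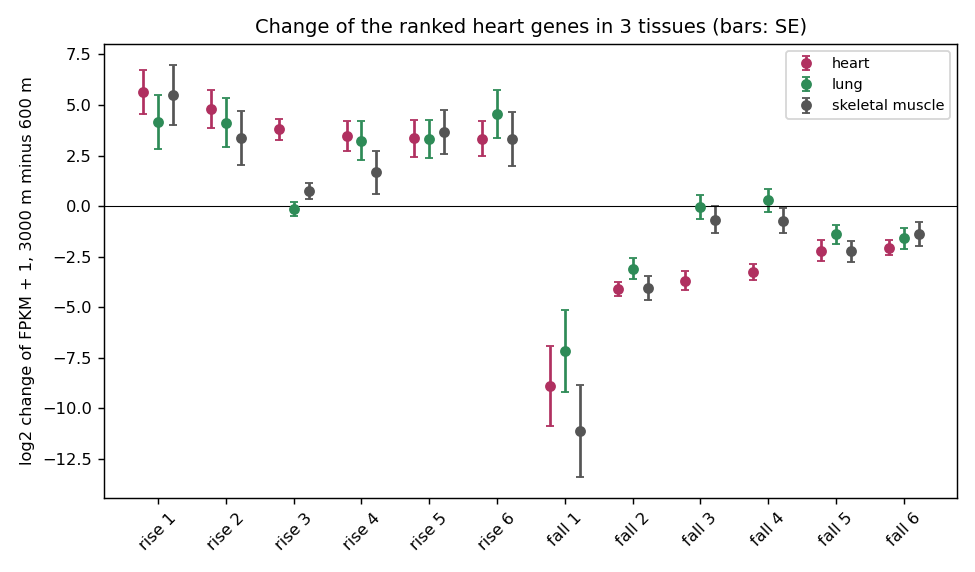
Log2 change of FPKM + 1 (3000 m minus 600 m) of the 6 largest rises and 6 largest falls of heart, shown for heart, lung and skeletal muscle, with bars of 1 standard error. Rise 3 has a change of 3.8 in heart and -0.14 in lung. Falls 1, 2, 5 and 6 and the other rises move in the same direction in the 3 tissues. Fall 3 is listed at 0 in every 3000 m heart, so its change depends on the pseudocount of 1.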

How the data were processed

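Total RNA of heart, lung and skeletal muscle had been made into strand-specific libraries. The authors mapped reads with TopHat2 2.0.11 to the goat genome and estimated FPKM with Cufflinks 2.2.1 (tools per the submitters' processing notes and the methods, which do not cover the 2000 m libraries). The deposited values are log2(FPKM + 1), and the authors' filter on low FPKM had not been applied to them. FPKM was recovered from them. Absolute depth is unknown.

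Groups came from the labels, which do not name the animals, so p-values measure the spread between libraries. Cuffdiff, used in the study, needs reads and was replaced by limma 3.58.1 (R 4.3.3, lmFit and eBayes with a trend, two-sided) on log2(FPKM + 1) over the 9 heart libraries, for genes with a mean above 0.5 FPKM over the 6 compared libraries, with Benjamini-Hochberg adjustment at 0.05. Fold changes are on the log2(FPKM + 1) scale, which understates changes of low genes. Differences between tissues were interaction contrasts over 26 samples, because skeletal muscle 600 m replicates 1 and 2 were averaged and counted as 1 (robust SD of their log2 ratio 0.0863, against 0.199 to 0.504 in 26 other replicate pairs, over genes above 50 FPKM). Summaries and figures used Python 3.11.15. The fits were tested on simulated data.

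Deviations from the group means of heart and lung libraries with the same number correlated across genes at r = 0.15 to 0.491 in all 9 pairs, and at -0.42 to 0.154 with different numbers. The numbers were therefore taken to pair heart with lung. For heart with muscle the same-number values were 0.256 to 0.306 at 3000 m and 0.193, -0.0695 and 0.305 at 600 m, but ran from -0.262 to 0.306 over all 9 pairs, so the numbers were not taken to pair these tissues over the whole series. Heart across altitudes (-0.122 to 0.133) showed no pairing.

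Members, rules and classes were chosen with earlier results of these data known. The 2 largest called rises and falls without overlap and with at least 5 FPKM in the higher group are named by ID. Those ranked 3 to 6 and the 5 most abundant genes are given by rank, and the 6 genes called both in heart and in the difference from lung were picked after their values were seen. A table of goat gene names (assembly ARS1.2) shared 0 of the 22131 IDs, so the gene lists and cell type markers could not be tested and no sequence is shown. Alternatives were pseudocounts, filters, scaling, the spread estimate, replicate blocks and leaving out single heart libraries. Leaving out 600 m replicate 1 of heart and lung together, and the recounts of the classes, were chosen after seeing the data.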

Additional observations from a re-analysis of the deposited data

Results flagged for a closer look

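The third largest rise in heart had a change between 3000 m and 600 m that was 3.945 larger on the log2 scale than its change in lung (limma adjusted p = 0.000548) and 3.047 larger than its change in skeletal muscle (adjusted p = 0.00705). All 3 of its 3000 m hearts lay above all 3 of the 600 m hearts. The gene also rose in muscle, at low values (log2 change 0.76 ± 0.4), and the pseudocount of 1 shrinks that change. The change differed between heart and lung for 15 genes and between heart and muscle for 156 genes by the limma test of the difference.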

How the results depend on the processing

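The number of genes called in heart was within 1.5 times of 1397 with other pseudocounts, with other filters on low values, with median-of-ratios or quantile scaling, with no mean-variance trend and with the replicate number as a replicate block (945 genes). It was 318 with the 6 compared libraries alone, and 14 to 2354 when single libraries were left out. The replicate numbers do not pair hearts across altitudes, so the block is given here as a count only. The percent of called genes higher at 3000 m, 66.4%, became 70.1% with the 6 compared libraries, 59% for genes above 5 FPKM, 43.2% with median-of-ratios scaling, 47.6% with quantile normalization and 47.8% to 85.7% when single libraries were left out. For the difference between heart and lung, 15 genes became 8 with 600 m and 3000 m libraries only, 69 with the replicate block and 5 to 77 when libraries were left out. For heart against muscle, 156 became 263 with median-of-ratios scaling and 51 with 600 m and 3000 m libraries only. It became 252 with muscle 600 m replicates 1 and 2 kept separate, 472 with the replicate block and 65 to 140 when libraries were left out. In both comparisons the block also joined muscle libraries by number, a pairing that was not taken to hold. The cause of these shifts was not tested. Among the ranked genes, falls 2 and 4 kept direction and call in all 19 alternatives, and rise 3, fall 3 and fall 6 in 18. Falls 3 and 4 passed the filter through the 600 m hearts alone, and rises 2 and 6 through the 3000 m hearts alone. For them these counts are a description. Rise 5 lost its call in 11, fall 5 in 10, rise 6 in 9, fall 1 in 5, rises 2 and 4 in 4 each and rise 1 in 3. The change of the third most abundant gene, not called, was -0.25 with quantile normalization and -0.0521 without 600 m replicate 2, and otherwise up to 0.34. Depth is unknown, so values near 0 carry no interval.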

Other observations

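Some tested genes were listed at 0 in all 3 hearts of 1 compared altitude, 28 of them at 600 m and 18 at 3000 m. They passed the filter on low values through the other group alone, so their difference was fixed by that choice and is no result about them. The highest mean in the other group was 14.5 FPKM for the former and 14.6 FPKM for the latter, which is that of fall 3.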
